A study of Rattus norvegicus with 8 samples.

Results

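The genes of the proteasome were compared between neonatal rat cardiomyocytes that received siECHS1 and cells that received siNC. They were taken from the expression table by their names, which begin with Psm, a letter from a to g and a number. The immunoproteasome subunits Psmb8, Psmb9 and Psmb10 were left out. This gave 47 of 21017 listed genes, of which 45 belong to the proteasome. They are 16 genes of the core particle, 17 of the regulatory particle, 5 activators and inhibitors, and 7 assembly factors. The other 2 were placed in no class. Psmc3ip matches by name alone and acts in meiotic recombination. Psme1-ps1 has the same protein match as Psme1, and the table lists it as protein-coding but names it as a pseudogene of Psme1.

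The proteasome is the barrel-shaped protease that degrades proteins tagged with ubiquitin. Alpha subunits form the outer rings of its core and gate the entrance, and beta subunits form the inner rings that hold the active sites. The regulatory particle recognises, unfolds and feeds in ubiquitinated proteins, whereas activators such as PA28 and PA200 can open the gate in its place. In heart muscle cells the proteasome clears damaged and surplus proteins, including sarcomere proteins.

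The cells were heart muscle cells of newborn Sprague-Dawley (SD) rats, collected 48 h after transfection. One group of 4 libraries came from cells given siECHS1, a small interfering RNA against Echs1, the short-chain enoyl-CoA hydratase of mitochondrial fatty acid oxidation. The other 4 libraries came from cells given siNC, the control RNA, so cells of both groups had been transfected. The labels give no further genotype, and they name no separate culture or animal for the replicates. The p-values therefore measure only the spread between these libraries, which may be technical. Levels are in FPKM, a fragment number divided by gene length and by library size, and group values are mean ± SD with n = 4 libraries each. Differences are on the log2(FPKM + 1) scale, siECHS1 minus siNC, and this scale understates the change of low genes. A gene was tested when its mean over the 8 libraries was at least 1 FPKM, and a call means a limma p below 0.05 after Benjamini-Hochberg adjustment over all genes tested.

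Library totals lay between 16953309 and 18237111 reads. The Echs1 row stood at 0.516 ± 0.112 FPKM in siECHS1 cells and 1.33 ± 0.244 FPKM in siNC cells, with no overlap between the groups (exact two-sided permutation test, p = 0.0286, the smallest that 4 against 4 libraries allow). LOC100911186, a row with the same protein match, stood at 3.38 ± 0.385 FPKM in siECHS1 and 6.61 ± 0.782 FPKM in siNC (ratio 0.511, limma adjusted p = 0.000272), and reads may be split between both rows. Of the defining markers of cardiomyocytes, 3 of 7 fell and 0 rose, and their summed level ranged from 3017 to 3202 FPKM in siECHS1 and from 3211 to 3318 FPKM in siNC. Myh6, Myl7 and Tnni3 were the genes that fell, with Myh6 at 741 FPKM in siECHS1 and 948 FPKM in siNC. Tnnt2, the most abundant, stood at 1551 FPKM in siECHS1 and 1447 FPKM in siNC without a call. Actn2, Ryr2 and Myl4 had differences of 0.03, 0.17 and -0.05, also without a call. Of the 6 fibroblast markers, 4 rose and 0 fell, with sums of 3623 to 3993 FPKM in siECHS1 and 2768 to 2973 FPKM in siNC. The rises were those of the matrix genes Col1a1, Col3a1, Dcn and Postn, and most of the sum is Col1a1. Pdgfra and Tcf21, receptor and transcription factor of fibroblasts, had differences of -0.03 and -0.02 without a call. Of 6 smooth muscle and pericyte markers 1 fell and 0 rose, with sums of 1760 to 1900 FPKM in siECHS1 and 2133 to 2195 FPKM in siNC. Tagln was the gene that fell, at 1397 FPKM in siECHS1 and 1751 FPKM in siNC, and Cnn1 stood at 237 FPKM in siECHS1 and 220 FPKM in siNC without a call. Of 5 endothelial markers 0 were called in either direction and 0 passed an unadjusted limma p of 0.05 (sums of 32.7 to 35.5 FPKM in siECHS1 and 31.5 to 35.3 FPKM in siNC). Of 3 tested markers each of macrophages and of epicardial cells 1 rose and 1 fell. The single Schwann cell marker tested was not called, and neither of the 2 erythroid rows reached the filter. Of these rows, Alas2 stood at 0.207 ± 0.0331 FPKM in siECHS1 and 0.697 ± 0.0760 FPKM in siNC, with no overlap between the groups. Hbb, the other erythroid row, had 0 reads over the siECHS1 libraries and 1 read over the siNC libraries. No marker of these lists was at 0 in every siNC library. The part of this cell make-up in the proteasome results was not tested, and in bulk RNA fewer cells of a type and less RNA per cell cannot be told apart.

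Within the siECHS1 group, replicate 4 stood apart for the proteasome genes. It held the highest value of its group in 31 of 42 tested members, against 30.1% of all tested genes. Its FPKM over all genes summed to 523385, while the other 3 siECHS1 libraries summed to 500294 to 506148 and the siNC libraries to 508008 to 515452. In the siNC group, replicate 1 held the lowest value in 21 of 42 members. The share of all tested genes in which it was lowest was not worked out. It held the highest siNC value in 7 of 42 members, against 32.0% of all tested genes. The counts of calls, of members without overlap and of members within 1.1-fold and 1.2-fold are given with and without siECHS1 replicate 4 and siNC replicate 1.

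Most proteasome transcripts differed little between siECHS1 and siNC, and 7 passed the test. Psmd7, Psma7, Psmd1, Psma1, Psmc1 and Psmd12 rose in siECHS1 cells and Psme2 fell. That is 6 higher and 1 lower of 42 tested members, or 14.3% and 2.38%. Among all 12616 tested genes 1114 rose, a share of 8.83%, and 1541 fell, a share of 12.2%. With both directions together, 16.7% of the tested members were called against 21.0% of all genes, so the members' share lay near the background. The median difference was 0.02 over the members and -0.01 over all tested genes. The groups did not overlap for 10 members that were higher and 2 that were lower in siECHS1, or 12 of 42. Of all tested genes 10.3% were higher and 14.9% lower without overlap, 25.2% in all. Without siECHS1 replicate 4 the groups did not overlap for 10 higher and 5 lower members, against 32.3% of all tested genes. Without siNC replicate 1 it was 11 higher and 4 lower, against 32.7% of all tested genes.

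The levels stayed close for nearly all members. The ratio of group means lay within 1.2-fold for 40 of 42 and within 1.1-fold for 34. Both counts were the same without siECHS1 replicate 4, and they were 39 and 33 without siNC replicate 1. Of the 35 members without a call, 34 had a 95% interval of the difference that lay within 1.3-fold either way. The exception was Psmd10, the assembly factor gankyrin, whose low level of 3.20 ± 0.877 FPKM in siECHS1 and 2.48 ± 0.181 FPKM in siNC rested on 18 to 38 reads per library. AABR07040855.1, a row with the same protein match as Psmd10, stood at 3.42 ± 0.722 FPKM in siECHS1 and 2.77 ± 0.577 FPKM in siNC. It had no call, and reads may be split between both rows. Without siECHS1 replicate 4, 5 members were called higher and 5 lower, the added falls being Psma5 and Psmb3 in the core and Psmc5 and Psmd8 in the regulatory particle. Without siNC replicate 1 the counts were 6 higher and 3 lower, with 1 higher and 1 lower in the core and 5 higher and 1 lower in the regulatory particle. Without siECHS1 replicate 2, and without siNC replicate 4, 3 members were called higher in each case.

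**Figure D1:**
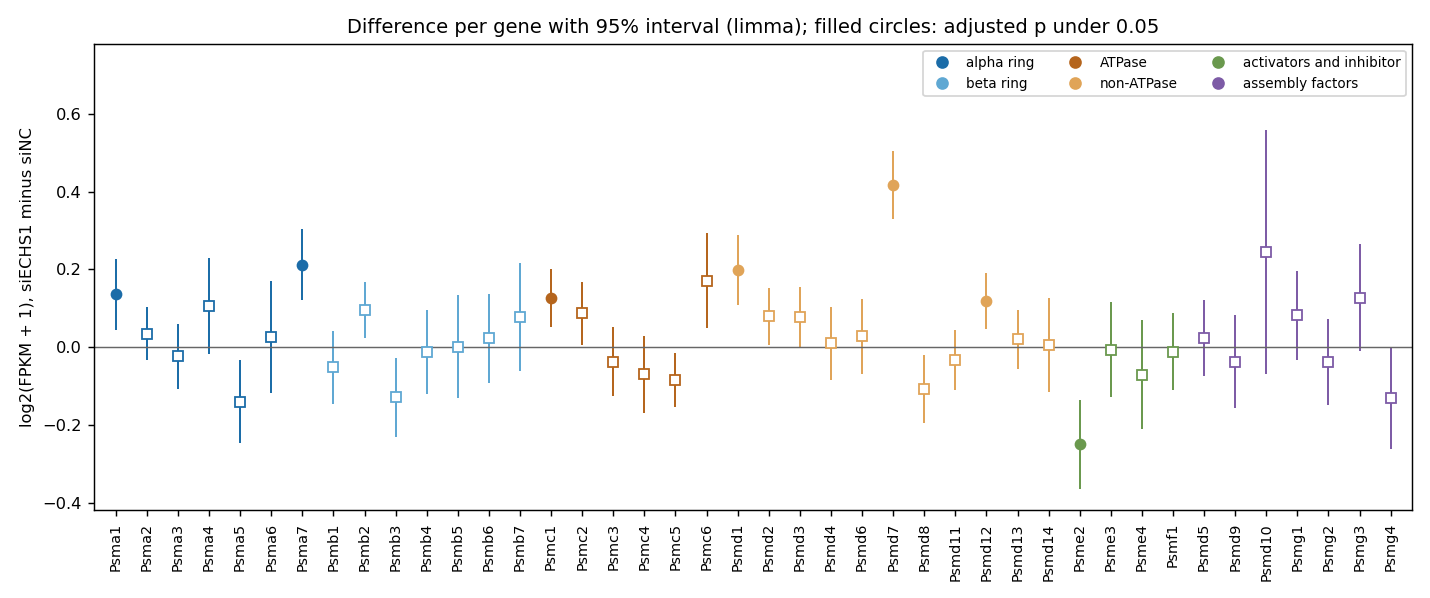
Difference between siECHS1 and siNC for each tested proteasome gene on the log2(FPKM + 1) scale, ordered by role, with the 95% interval from limma. Filled circles mark the 7 genes with an adjusted p under 0.05, and the values run from -0.25 (Psme2) to 0.42 (Psmd7).

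Promoter sequences of 4 members are shown because they belong to the largest rise of the set, a further rise in the regulatory particle, the fall among the activators, and a catalytic subunit whose level was close in both groups. Each runs 5′ to 3′ on the gene's own strand from 250 bases before to 50 bases after the start of the gene, from the RefSeq table of build GRCr8. Capitals mark the motifs found in it. Psmd7 lies at chr19:52411267-52411566 (minus strand) and Psmd1 at chr9:94157721-94158020 (plus strand). Psme2 lies at chr15:33052702-33053001 (minus strand) and Psmb5 at chr15:32047330-32047629 (minus strand).
Psmd7: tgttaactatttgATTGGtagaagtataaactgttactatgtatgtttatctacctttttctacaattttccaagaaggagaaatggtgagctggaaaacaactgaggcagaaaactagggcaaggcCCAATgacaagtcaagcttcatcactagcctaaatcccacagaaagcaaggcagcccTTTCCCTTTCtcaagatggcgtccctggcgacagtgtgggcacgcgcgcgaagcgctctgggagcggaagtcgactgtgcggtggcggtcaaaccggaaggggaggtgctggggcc
Psmd1: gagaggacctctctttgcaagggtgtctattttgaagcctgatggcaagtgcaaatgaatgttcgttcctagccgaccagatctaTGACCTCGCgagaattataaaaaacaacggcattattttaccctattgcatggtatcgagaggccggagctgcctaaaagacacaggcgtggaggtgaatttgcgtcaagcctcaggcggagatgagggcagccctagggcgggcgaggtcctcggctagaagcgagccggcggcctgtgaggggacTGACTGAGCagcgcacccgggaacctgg
Psme2: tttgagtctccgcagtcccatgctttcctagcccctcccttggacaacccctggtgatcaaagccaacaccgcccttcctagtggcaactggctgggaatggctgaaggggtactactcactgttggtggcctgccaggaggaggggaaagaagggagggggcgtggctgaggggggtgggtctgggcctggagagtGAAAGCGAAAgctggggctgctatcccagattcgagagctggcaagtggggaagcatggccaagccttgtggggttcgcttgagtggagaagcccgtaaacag
Psmb5: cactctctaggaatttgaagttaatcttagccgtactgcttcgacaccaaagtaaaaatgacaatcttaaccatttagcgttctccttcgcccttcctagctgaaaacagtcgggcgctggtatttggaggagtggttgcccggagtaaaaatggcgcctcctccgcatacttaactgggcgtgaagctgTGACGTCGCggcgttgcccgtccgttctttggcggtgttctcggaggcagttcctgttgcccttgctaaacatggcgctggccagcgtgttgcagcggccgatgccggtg

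Motifs of 3 kinds were searched on both strands. The core of the antioxidant response element, TGACNNNGC, is bound by Nrf1 and Nrf2, of which Nrf1 is known to drive proteasome genes. The CCAAT box is bound by NF-Y, and the IRF box is the site of the interferon regulatory factors. The last was added after the sequences had been seen, and none of the motifs overlaps another in the 4 promoters shown. In the Psmd7 promoter CCAAT boxes begin 237 bases (reverse strand) and 123 bases before the start, and an IRF box begins 66 bases before it on the reverse strand. The Psmd1 promoter holds the antioxidant core 165 bases before the start and again downstream of it, the Psmb5 promoter holds it 60 bases before the start, and the Psme2 promoter holds the IRF box 53 bases before the start.

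Of the 45 members 40 matched a promoter by symbol, and Psma7, Psmb11, Psmd12, Psmd14 and Psmd6 did not. The antioxidant core stood in 8 of 40 member promoters (20%) and in 4038 of all 33469 promoters of the table (12.1%). In the core particle it stood in 4 of 14, those of Psmb2, Psma3, Psmb6 and Psmb5, of which none was called, and of the 4 risen genes with a promoter in the table only Psmd1 held it. The CCAAT box stood in 19 of 40 (47.5%) against 37.5% of all promoters. The IRF box stood in 5 of 40 (12.5%) against 3.92%, but it was picked after these sequences had been seen, so this was no planned comparison. These matches are descriptions of the letters in the windows.

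The alpha ring of the core particle held both of the core's calls. Psma7, an alpha subunit, had 151, 150, 148 and 167 FPKM in siECHS1 cells, against 133, 130, 136 and 131 FPKM in siNC cells. Each siECHS1 library was above each siNC library, and replicate 4 was the highest by a wide margin. The means were 154 ± 8.63 FPKM in siECHS1 and 133 ± 2.82 FPKM in siNC, a ratio of 1.16 and a difference of 0.21 on the log2 scale (SE 0.04, limma adjusted p = 0.00525). Without siECHS1 replicate 4 the call of Psma7 held. Psma1, another alpha subunit, had 99.3, 110, 104 and 111 FPKM in siECHS1 cells, against 92.8, 98.7, 97.2 and 97.5 FPKM in siNC cells. The groups came close without overlap, since the lowest siECHS1 library stood just above the highest siNC library. Psma1 differed by 0.14 (SE 0.04, limma adjusted p = 0.0406). This call was lost in 8 of 14 alternatives, which are the fit with no filter on low values (limma adjusted p = 0.0676), the fits without siECHS1 replicate 2, 3 or 4 and those without each of the siNC libraries in turn, with adjusted p between 0.0183 and 0.113 over all alternatives.

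The other 5 tested alpha genes were not called. Psma5, an alpha subunit that adjoins Psma7 in the ring, stood at 71.0 ± 3.85 FPKM in siECHS1 and 78.4 ± 4.00 FPKM in siNC, with a difference of -0.14 (limma adjusted p = 0.0625). Its groups overlapped. The level of Psma7 over that of Psma5 was 2.17 ± 0.0531 in siECHS1 libraries and 1.70 ± 0.0752 in siNC libraries, given as a description. Psma2, Psma3, Psma4 and Psma6 had differences between -0.02 and 0.11. Psma3 and Psma4 had the lowest alpha levels, 40.3 ± 0.597 and 22.1 ± 1.35 FPKM in siECHS1, against 41.0 ± 1.76 and 20.5 ± 1.25 FPKM in siNC. Their gene lengths as recovered from the FPKM values were 3559 and 3909 bases, against 874 to 1174 bases for the other tested alpha genes, and FPKM is a level per length. Psma8, the testis form of an alpha subunit, had 1 read in siECHS1 replicate 1 and 0 reads in the other 7 libraries, which lies under the floor of 3 reads.

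None of the 7 tested beta genes was called in limma, and 1 higher and 1 lower passed an unadjusted p of 0.05. The share of all tested genes past that unadjusted threshold was not worked out. Psmb5, Psmb6 and Psmb7 carry the active sites, which cut after hydrophobic, acidic and basic residues, in that order. Psmb5 had 35.6, 41.7, 37.8 and 43.7 FPKM in siECHS1, against 38.3, 40.8, 40.4 and 38.7 FPKM in siNC. The siECHS1 libraries lay on both sides of the siNC libraries, and the means of 39.7 ± 3.65 FPKM in siECHS1 and 39.6 ± 1.27 FPKM in siNC gave a difference of 0.00 with a 95% interval of -0.13 to 0.13 (limma adjusted p = 0.996).

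Psmb6 had 128, 127, 125 and 139 FPKM in siECHS1, against 124, 133, 118 and 137 FPKM in siNC. Its groups overlapped, and the difference was 0.02 with a 95% interval of -0.09 to 0.14 (limma adjusted p = 0.80). A listed gene with the same protein match, LOC100360846, stood at 9.37 ± 0.648 FPKM in siECHS1 and 9.72 ± 1.57 FPKM in siNC, and reads may be shared between the rows. Psmb7 had 28.0, 30.0, 27.7 and 33.5 FPKM in siECHS1, against 27.1, 26.7, 30.2 and 28.6 FPKM in siNC. Only siECHS1 replicate 4 lay above every siNC library, and the difference was 0.08 with a 95% interval of -0.06 to 0.22 (limma adjusted p = 0.423). The Psmb7 row overlaps Nek6, and the library kit does not mark strand.

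Psmb4, a beta subunit without an active site, was the most abundant member of the whole set. It had 230, 243, 231 and 264 FPKM in siECHS1, against 234, 255, 237 and 250 FPKM in siNC. These ranges overlapped, with means of 242 ± 15.9 FPKM in siECHS1 and 244 ± 9.74 FPKM in siNC. Psmb2 had all 4 siECHS1 values above the siNC range (121 ± 3.08 FPKM in siECHS1, 114 ± 2.84 FPKM in siNC), and its adjusted p was 0.0638 in limma. Psmb3 stood at 125 ± 7.44 FPKM in siECHS1 and 136 ± 5.15 FPKM in siNC (limma adjusted p = 0.0720). Psmb1 differed by -0.05. Psmb11, the thymus form of a catalytic subunit, had 3 to 4 reads per siECHS1 library and 1 to 7 per siNC library, below the filter. Summed over the 14 tested core genes, the level was 1522 ± 74.3 FPKM in siECHS1 and 1500 ± 36.7 FPKM in siNC, and the median difference was 0.02, or -0.01 without siECHS1 replicate 4.

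**Figure D2:**
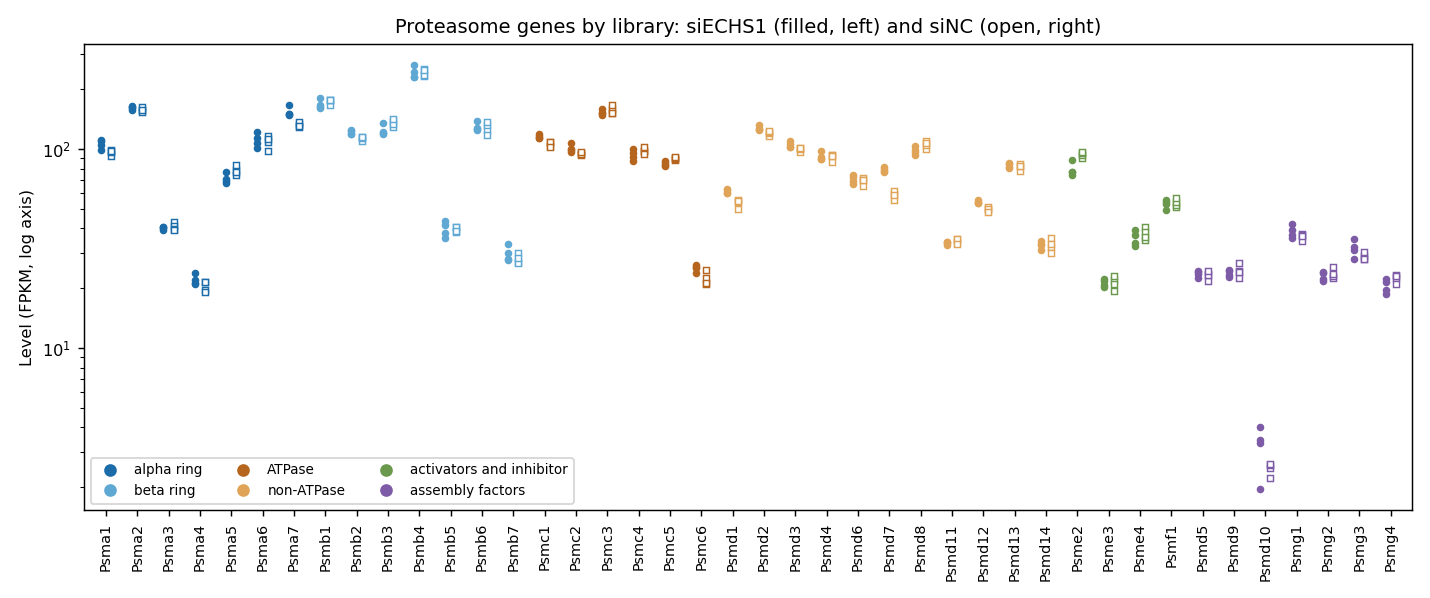
Level of each tested proteasome gene in FPKM on a log axis, one point per library, with siECHS1 filled on the left and siNC open on the right of each pair, coloured by role. Levels run from the assembly factor Psmd10 at 3.20 FPKM in siECHS1 and 2.48 FPKM in siNC to Psmb4 at 242 FPKM in siECHS1 and 244 FPKM in siNC.

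The regulatory particle held 4 of the 6 rises among 17 tested genes, and 0 of its genes fell. At an unadjusted limma p of 0.05, 8 of its genes were higher and 2 were lower. The share of all tested genes at that unadjusted threshold was not worked out. The 4 called rises make up 23.5% of the particle's tested genes, beside 8.83% of all tested genes that rose and 12.2% that fell. Its median difference was 0.03. Psmd7 encodes a lid subunit that pairs with the deubiquitinase Psmd14, and its transcript (ENSRNOG00000014097, chromosome 19, 39639431 to 39646693, minus strand, as the table lists it) changed most. Psmd7 had 77.7, 76.5, 79.7 and 81.6 FPKM in siECHS1 cells, against 55.3, 59.6, 61.4 and 58.9 FPKM in siNC cells. The lowest siECHS1 library stood far above the highest siNC library. The means were 78.9 ± 2.24 FPKM in siECHS1 and 58.8 ± 2.58 FPKM in siNC, a ratio of 1.34 and a difference of 0.42 (SE 0.04, limma adjusted p = 0.000114). Of all tested genes 222, or 1.76%, had a larger rise. Over the 14 alternatives the difference of Psmd7 lay between 0.39 and 0.44 and its call held in each.

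Its partner Psmd14, the metalloprotease that removes ubiquitin chains before degradation, stood at 33.0 ± 1.38 FPKM in siECHS1 and 32.9 ± 2.46 FPKM in siNC. The difference of Psmd14 was 0.01 with a 95% interval of -0.12 to 0.13 (limma adjusted p = 0.956). The level of Psmd7 over that of Psmd14 was 2.39 ± 0.115 in siECHS1 libraries and 1.79 ± 0.173 in siNC libraries, with no overlap, as a description.

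Psmd1, the large scaffold subunit of the base that docks ubiquitin receptors, had 62.7, 63.1, 60.4 and 60.2 FPKM in siECHS1, against 55.6, 54.3, 54.7 and 49.8 FPKM in siNC. The groups stood apart, and siNC replicate 4 was the lowest library. Psmd1 differed by 0.20 (SE 0.04, limma adjusted p = 0.00694), and the call held in the 14 alternatives. Its row overlaps Htr2b by start and end position. Whether exons of both genes overlap was not looked at, so it is not known if reads are shared. Psmd12, a lid subunit, had 55.5, 54.4, 53.5 and 53.6 FPKM in siECHS1, against 49.9, 51.2, 50.1 and 48.4 FPKM in siNC. The values of each group were tight and did not overlap. Psmd12 differed by 0.12 (SE 0.03, limma adjusted p = 0.0254), and the call was lost in 4 of 14 alternatives, without siECHS1 replicate 1 or 2 and without siNC replicate 3 or 4 (adjusted p between 0.0154 and 0.0728 over the alternatives).

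Psmc1 was the single ATPase that passed. The 6 ATPases, Psmc1 to Psmc6, form the ring that unfolds substrates. Psmc1 had 114, 117, 113 and 119 FPKM in siECHS1, against 104, 109, 109 and 103 FPKM in siNC. The groups did not overlap, and the difference of Psmc1 was 0.13 (SE 0.03, limma adjusted p = 0.0228). Its call was lost without siECHS1 replicate 2 and without siNC replicate 4 (adjusted p between 0.0162 and 0.0638 over the alternatives). Psmc6 had a larger difference of 0.17 at a lower level, 25.2 ± 1.03 FPKM in siECHS1 and 22.4 ± 1.71 FPKM in siNC, with overlapping groups and a limma adjusted p of 0.0513. In 5 of 14 alternatives Psmc6 was called higher. These were the filter of 5 FPKM, median-of-ratios scaling, quantile normalization, the replicate block and the fit without siNC replicate 1.

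The most abundant gene of the regulatory particle was the ATPase Psmc3. It had 149, 153, 152 and 160 FPKM in siECHS1, against 152, 159, 152 and 168 FPKM in siNC, with overlapping ranges and a difference of -0.04 (limma adjusted p = 0.545). Psmc5 had all 4 siECHS1 values below the siNC range, at 84.6 ± 2.11 FPKM in siECHS1 and 89.8 ± 1.43 FPKM in siNC, without a call (limma adjusted p = 0.0790). Its row overlaps the small nucleolar RNA SNORA51. Psmc2, Psmd2 and Psmd3 had all 4 siECHS1 values above the siNC range, also without a call, with differences of 0.09, 0.08 and 0.08. Psmd2 is the other large scaffold of the base and Psmd3 a lid subunit. Psmc4, Psmd4, Psmd6, Psmd8, Psmd11 and Psmd13 had differences between -0.11 and 0.03 without a call. Summed over the 17 genes, the level was 1413 ± 34.7 FPKM in siECHS1 and 1368 ± 22.4 FPKM in siNC.

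**Figure D3:**
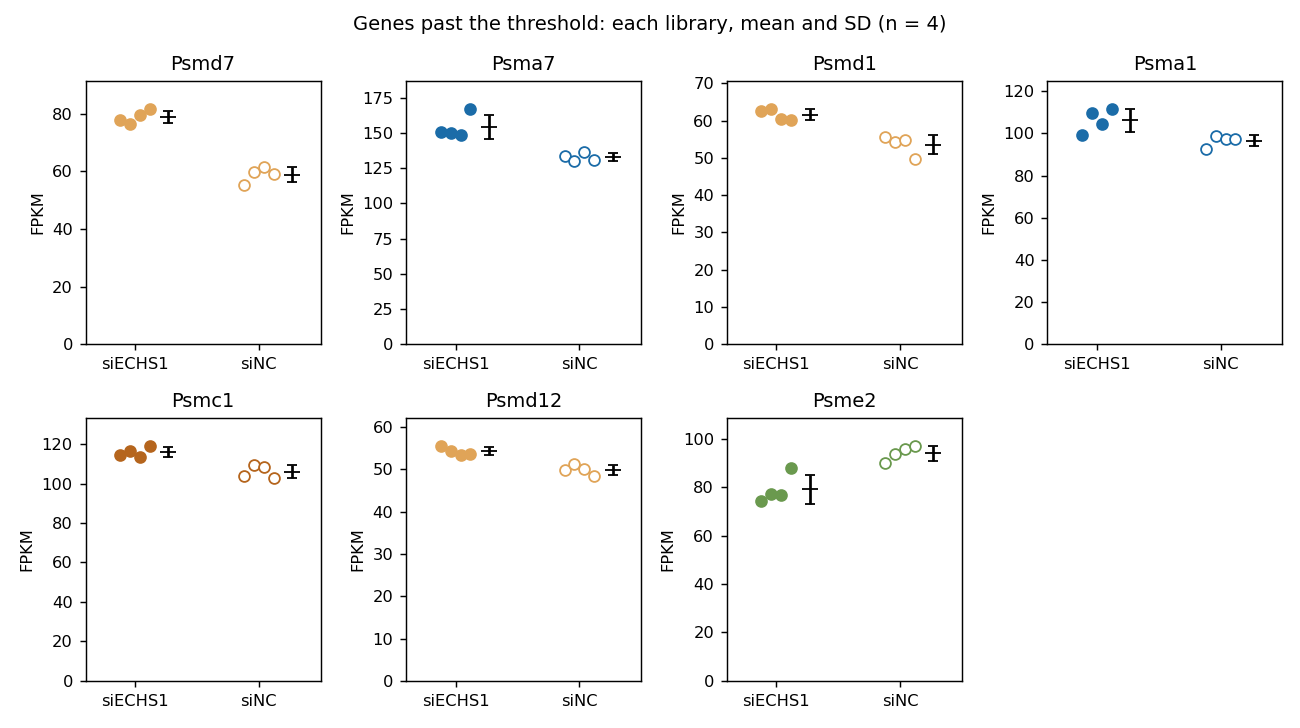
FPKM of the 7 called genes in each library (points, replicates 1 to 4 from left to right), with the mean and SD of 4 libraries beside them, siECHS1 left and siNC right, on axes that start at 0. The groups do not overlap in any panel, and Psmd7 shows the widest gap relative to its level, 78.9 FPKM in siECHS1 against 58.8 FPKM in siNC.

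Among the activators Psme2 fell. It encodes the beta subunit of PA28, the interferon-inducible cap that it forms with the alpha subunit Psme1. Psme2 (ENSRNOG00000019246, chromosome 15, 34265557 to 34269851, minus strand) had 74.3, 77.2, 76.7 and 88.1 FPKM in siECHS1, against 89.9, 93.6, 95.7 and 97.0 FPKM in siNC. The highest siECHS1 library, replicate 4, came close to the lowest siNC library without reaching it. The means were 79.1 ± 6.13 FPKM in siECHS1 and 94.0 ± 3.09 FPKM in siNC, a ratio of 0.841 and a difference of -0.25 (SE 0.05, limma adjusted p = 0.00741). Of all tested genes 880, or 6.98%, had a larger fall. The call of Psme2 held in the 14 alternatives, with differences between -0.30 and -0.22.

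Its partner Psme1 was nearly without reads. The 4 siECHS1 libraries had 2, 0, 2 and 1 reads, and the 4 siNC libraries had 0, 1, 0 and 0. All lie under the floor of 3 reads, which corresponds to 0.165 to 0.177 FPKM, so no fold was formed. The row named Psme1-ps1 has the same protein match and stood at 2.85 ± 0.264 FPKM in siECHS1 and 2.46 ± 0.701 FPKM in siNC (limma adjusted p = 0.367). The sources used here do not say how reads common to both rows were assigned, which leaves the level of Psme1 uncertain. The Psme1 row also overlaps Emc9, and it lies 6.6 kb from Psme2 on chromosome 15.

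The other activators and the inhibitor had no call. Psme3, the nuclear activator PA28 gamma, had 20.9, 21.8, 22.3 and 20.3 FPKM in siECHS1, against 22.0, 19.5, 23.2 and 21.1 FPKM in siNC. Psme4, the activator PA200, had 37.1, 39.1, 32.7 and 33.8 FPKM in siECHS1, against 40.6, 38.2, 35.1 and 36.0 FPKM in siNC. Psmf1, the inhibitor PI31, had 49.8, 53.1, 54.3 and 55.6 FPKM in siECHS1, against 51.2, 52.7, 54.0 and 56.7 FPKM in siNC. In each of these 3 genes the groups overlapped. Their limma adjusted p was 0.950 for Psme3, 0.469 for Psme4 and 0.882 for Psmf1, and their differences lay between -0.07 and -0.01. The ratio of Psme2 to Psme3, as a description, was 3.72 ± 0.419 in siECHS1 and 4.40 ± 0.354 in siNC, with overlapping groups. Summed over the 4 tested genes the level was 189 ± 6.79 FPKM in siECHS1 and 207 ± 3.41 FPKM in siNC, a difference of -8.41% in which Psme2 makes up most of the gap.

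None of the 7 assembly factors was called, and none passed an unadjusted p of 0.05 in limma in either direction. Without siECHS1 replicate 3, the lowest siECHS1 library for Psmd10, its difference was 0.40 instead of 0.24 and it was called higher (limma adjusted p = 0.0108). Psmg1 to Psmg4 help to build the alpha ring, and Psmd5, Psmd9 and Psmd10 are chaperones of the base. Psmg1, the most abundant, had 37.2, 35.9, 42.2 and 39.2 FPKM in siECHS1, against 37.6, 34.6, 36.9 and 36.4 FPKM in siNC. Its groups overlapped, with a difference of 0.08 (limma adjusted p = 0.294). The smallest adjusted p of the class was 0.146, for Psmg4, which stood at 20.5 ± 1.70 FPKM in siECHS1 and 22.5 ± 0.994 FPKM in siNC. The median difference of the class was 0.02, and its summed level was 165 ± 5.14 FPKM in siECHS1 and 162 ± 3.29 FPKM in siNC.

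**Figure D4:**
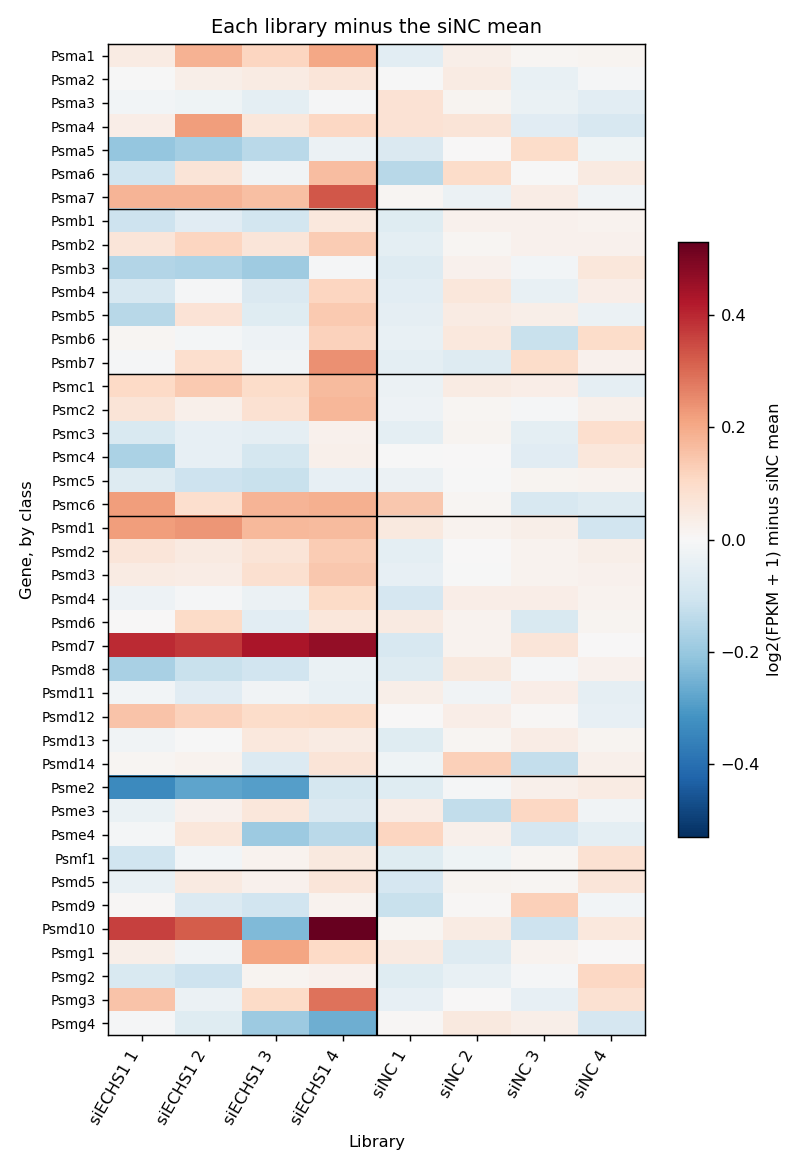
Each tested proteasome gene (rows, by role) in each library (columns, siECHS1 left of siNC) as log2(FPKM + 1) minus the siNC mean of that gene. Red is above and blue below the siNC mean. Psmd7 is red in all 4 siECHS1 columns, and siECHS1 replicate 4, the highest of its group in 31 of 42 genes, is the reddest column.

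After the group means were taken off, so that only the spread within groups was left, pairs of core genes had a median Pearson correlation of 0.59 over the 8 libraries (91 pairs of 14 genes), and pairs of regulatory genes 0.26 (136 pairs of 17 genes). Over all 861 pairs of members the median was 0.32, and over all pairs of the 12616 tested genes it was 0.00. Without siECHS1 replicate 4 the medians were 0.28 for the core, 0.07 for the regulatory particle and 0.11 for all members. Without siNC replicate 1 they were 0.59, 0.24 and 0.33, in the same order. The points share library, depth and scaling, and the values are a description. The members lie on 17 chromosomes. Apart from Psme1 and Psme2, the nearest pairs are Psmb5 and Psmb11, 7.4 kb apart on chromosome 15, and Psmb4 and Psmd4, 151.7 kb apart on chromosome 2. Psme2 was called and Psmb5 was not, and neither Psmb4 nor Psmd4 was called.

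Other genes of the ubiquitin-proteasome pathway, from a list that lies outside the name pattern, had 3 rises and 6 falls among 41 tested rows, while 8.83% of all tested genes rose and 12.2% fell. In the list of shuttles that carry ubiquitinated proteins to the proteasome, together with the segregase, 4 of 9 tested genes fell and 1 rose. Ubqln1 stood at 49.2 ± 0.583 FPKM in siECHS1 and 57.7 ± 2.33 FPKM in siNC (limma adjusted p = 0.00186). Ubqln4, a related shuttle, stood at 36.5 ± 0.431 FPKM in siECHS1 and 40.3 ± 1.08 FPKM in siNC (limma adjusted p = 0.0152). Ubqln2 and Nploc4 also fell, and Nploc4 is a cofactor of the segregase Vcp. Ubqln2 stood at 25.3 ± 1.61 FPKM in siECHS1 and 29.0 ± 1.88 FPKM in siNC (limma adjusted p = 0.0397), and its call was lost in 7 of 14 alternatives, median-of-ratios scaling among them. Nploc4 stood at 36.4 ± 1.19 FPKM in siECHS1 and 41.2 ± 1.58 FPKM in siNC (limma adjusted p = 0.0125). Rad23b, another shuttle, rose to 106 ± 1.13 FPKM in siECHS1, against 93.1 ± 9.21 FPKM in siNC (limma adjusted p = 0.0498), and its call was lost in 9 of 14 alternatives.

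Of the factors that control proteasome transcription, Nfe2l1 encodes Nrf1, which raises proteasome genes when the proteasome is inhibited. Nfe2l1 had no call, with 106 ± 5.61 FPKM in siECHS1 and 104 ± 2.88 FPKM in siNC (limma adjusted p = 0.634). Nfe2l2, which encodes the related factor Nrf2, rose to 73.6 ± 2.38 FPKM in siECHS1, against 66.6 ± 2.01 FPKM in siNC (limma adjusted p = 0.0204). Without siECHS1 replicate 2, and without siNC replicate 3, its call was lost. Zfand2a, a stress-induced zinc finger protein that binds the proteasome, rose to 16.6 ± 0.513 FPKM in siECHS1, against 13.8 ± 0.478 FPKM in siNC (limma adjusted p = 0.00256). Uba1, the main ubiquitin-activating enzyme, fell to 147 ± 2.73 FPKM in siECHS1, against 161 ± 5.08 FPKM in siNC (limma adjusted p = 0.0209). Its call was lost in 6 of 14 alternatives, and with median-of-ratios scaling the limma adjusted p of Uba1 was 0.0594.

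Pomp, which guides beta ring assembly, had no call, with 20.6 ± 3.65 FPKM in siECHS1 and 17.6 ± 2.20 FPKM in siNC (limma adjusted p = 0.229). LOC100911238, a row with the same protein match, stood at 23.3 ± 3.73 FPKM in siECHS1 and 23.1 ± 1.87 FPKM in siNC (limma adjusted p = 0.978). Reads may be split between the 2 rows. The immunoproteasome subunit Psmb8 fell to 23.8 ± 0.828 FPKM in siECHS1, against 28.2 ± 3.23 FPKM in siNC (limma adjusted p = 0.0459), though siNC replicate 1 lay within the range of the siECHS1 libraries and the call was lost in 10 of 14 alternatives. Psmb9 and Psmb10 were not called, with differences of -0.06 and -0.15. Of 5 muscle ubiquitin ligases, among them Fbxo32 (atrogin-1) and Trim63 (MuRF1), 0 were called, and 1 was lower at an unadjusted limma p of 0.05.

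**Figure D5:**
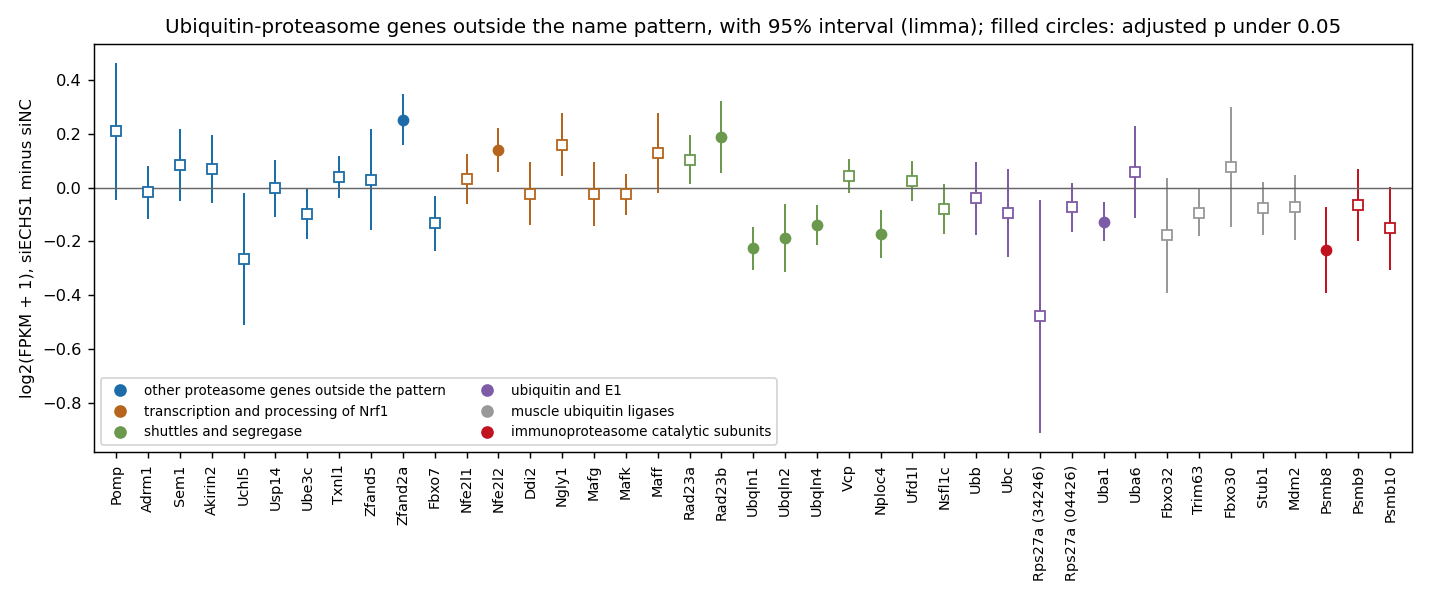
Difference between siECHS1 and siNC with 95% interval for 41 tested rows of ubiquitin-proteasome genes outside the name pattern, on the log2(FPKM + 1) scale. Filled circles mark the 3 rises and 6 falls with an adjusted p under 0.05, and the symbol Rps27a belongs to 2 rows that are told apart by the end of their identifiers.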

How the data were processed

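RNA was measured in 8 libraries of transfected neonatal rat cardiomyocytes, 4 given siECHS1 and 4 given siNC. Per the labels' protocols, libraries were made from 1 µg of total RNA with an Illumina TruSeq RNA kit, which does not mark strand. Levels were deposited by the authors as FPKM, by gene and library. Bowtie 0.12.2 and the builds Rnor_6.0 and mm8 are named, per the submitters' processing notes, with no role stated. The sources used here do not name the counting tool or its handling of multiply matching reads. Members with another row of the same protein match (Psma3, Psma6, Psmb6, Psmd10, Psmd12, Psme1 and Psme3) may therefore share reads with that row. The sequences of these rows were not compared.

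Values were fitted as log2(FPKM + 1) by limma 3.58.1 (R 4.3.3), using a variance trend and no covariates, over the 12616 genes whose mean reached 1 FPKM. Tests were two-sided, with Benjamini-Hochberg adjustment over these genes. The fit was tested on simulated data. Members below the filter were looked at by reads and an exact permutation test over the 70 assignments of libraries. Low FPKM values step in whole reads, from which reads, gene lengths and totals of the libraries were worked back. In this, 100% of the values were whole to within 0.01 of a read. These reads give depth only, and their floor of 3 reads covers counting error only. Every pair of libraries within a group differed by more than counting noise (chi-square per degree of freedom of 2.56 to 6.02), so none was taken for a library deposited again, which does not show that the cultures were separate.

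Genes given by library are those past the threshold, the catalytic subunits Psmb5, Psmb6 and Psmb7, the activators and inhibitor, and the most abundant of each class. Pathway genes past the threshold are named with group means, and others are counted. One gene of that list was left out of values and counts. The members, the gene lists and the markers were chosen with earlier results of these data known. Alternatives were a pseudocount of 0.1, no filter, a filter of 5 FPKM, median-of-ratios scaling, quantile normalization, a replicate block, and leaving out each library. Python 3.11.15, pandas 2.3.3 and matplotlib 3.10.9 made the tables and figures.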

Additional observations from a re-analysis of the deposited data

Results flagged for a closer look

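In 6 of 84 groups of 4 libraries looked at among the tested members, 1 library stood far from the other 3. Chance alone gives about 1 such group in 20. In siECHS1, replicate 4 was the high library in 3 genes. It had 166.8 FPKM for Psma7 against 148 to 151 FPKM in the other siECHS1 libraries, 135.6 FPKM for Psmb3 against 119 to 122 FPKM, and 98.2 FPKM for Psmd4 against 89.5 to 90.9 FPKM. In siNC, replicate 1 was the low library in 3 genes. It had 166.9 FPKM for Psmb1 against 177 FPKM in the other siNC libraries, 109.5 FPKM for Psmb2 against 115 FPKM, and 85.9 FPKM for Psmd4 against 92.7 to 93.6 FPKM. Of these genes Psma7 was called, and its call held without siECHS1 replicate 4.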

How the results depend on the processing

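Over the 14 alternatives no called member changed direction, and Psma7, Psmd1, Psmd7 and Psme2 kept their calls in each. Psma1, Psmc1 and Psmd12 lost theirs under the alternatives named above. The count of members that rose was 6 as reported, between 5 and 9 under the settings that kept all 8 libraries, and from 3 to 6 when 1 library was left out. The count that fell was 1 as reported, 5 with quantile normalization and from 1 to 5 when 1 library was left out (5 without siECHS1 replicate 4 and 3 without siNC replicate 1). The cause was not tested. With the replicate number as a block, 8 members rose and 3 fell. Deviations of same-numbered libraries correlated at 0.17, -0.05, 0.01 and 0.07. With 4 libraries per group, these values cannot settle whether the numbers pair the libraries. The class medians lay between -0.01 and 0.05 for the core, 0.02 and 0.06 for the regulatory particle, -0.07 and -0.03 for activators and inhibitor, and -0.01 and 0.04 for assembly factors when 1 library was left out. With median-of-ratios scaling 50.1% of all calls were rises, against 42.0% as reported, and no scaling moved the median of all genes by more than 0.02. Depth limits Psma8, Psmb11, Psme1 and Psmd10, whose reads are few.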

Other observations

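The row RGD1306148, whose protein match is a homolog of the proteasome adapter ECM29, stood at 25.5 ± 1.06 FPKM in siECHS1 and 23.6 ± 0.842 FPKM in siNC without a call (limma adjusted p = 0.103). Psmc3ip, the meiotic gene caught by its name, stood at 12.1 ± 1.25 FPKM in siECHS1 and 10.3 ± 0.350 FPKM in siNC. Its groups did not overlap, and its limma adjusted p was 0.0527. The ubiquitin gene Ubb had no call, with 607 ± 49.9 FPKM in siECHS1 and 623 ± 35.8 FPKM in siNC (limma adjusted p = 0.696).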
